A study of Bombus lucorum with 81 samples.

Results

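The peroxisome genes described here are 31 of the 10581 genes counted in workers of the bumblebee *Bombus lucorum*. They were taken from the peroxisome row of the study's pathway list for grazed against ungrazed sites, which names the genes at the low end of a ranking by grazing fold change. The corresponding lists for elevation and for sampling temperature have no such row, no id of this row also stands in the lysosome row, and all 31 ids were found in the count table. The members were therefore chosen by their grazing difference in these same 81 bees, so that difference is given only as a description, and the elevation and temperature comparisons are the ones that carry a test. Grazing was not balanced between the belts or between the temperature classes, so only the tests within a grazing class leave it out. Of the pathway outside the list, only 9 genes recognised by name were analysed here. Their place in the study's ranking was not looked up, so no gene just outside the list can be set beside it.

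Each library held the RNA of 1 free-flying worker, caught in an Alpine landscape and prepared from thorax and abdomen after legs, wings, head and gut had been taken off. The 81 bees came from 16 sites between 641 m and 1930 m, which form 3 elevational belts. The lowland belt held 15 bees of 3 ungrazed sites and 15 bees of 3 grazed sites, the mid-elevation belt 25 bees of 5 grazed sites, and the highland belt 21 bees of 4 ungrazed sites and 5 bees of 1 grazed site, where grazed means that livestock used the site. The 30 lowland bees were also divided by the air temperature at capture into 17 warm and 13 cool bees. Whether bees of a site shared a colony is not known, so p-values over bees measure the spread between bees.

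Peroxisomes are small organelles that shorten very long fatty acids by beta-oxidation, make the first intermediates of ether lipids and break down the hydrogen peroxide that their oxidases release. In insects they are abundant in the fat body and in oenocytes, the cells that make cuticular hydrocarbons. Fatty acyl-CoA reductases, which the pathway also lists, turn acyl-CoA into fatty alcohols for ether lipids and waxes.

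Library totals ran from 15700759 to 33784279 counts with a median of 26082949, and the 31 members took between 0.124% and 0.531% of a library. Levels are given as CPM, the count of a gene relative to the library total after scaling for library composition. The libraries differed sharply in transcripts of gut type: 15 genes named as peritrophins, trypsins, chymotrypsins or mucins, the defining secreted products of the gut, summed to 7.20 to 255 CPM in 37 bees and to 3197 to 71402 CPM in the other 44, with no bee between. None of these 15 genes was at 0 in every bee. Gene by gene, in the edgeR test used for the members, 1 of 14 was called higher in highland than lowland, 1 higher and 2 lower in highland than mid-elevation, 1 higher in mid-elevation than lowland, and none of 13 within either grazing class or of 12 by temperature. The bees over 1000 CPM were 16 of 21 from ungrazed highland sites, 5 of 15 from ungrazed lowland sites, 10 of 17 warm bees and 2 of 13 cool bees, and these sets were defined from the marker levels and not from the labels. In bulk RNA of this kind fewer cells of a type and less RNA per cell cannot be told apart.

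Of the 31 members 28 carry no gene name in the material used here, so the label of peroxisome rests on the study's own pathway assignment. The 3 named members are fatty acyl-CoA reductases: LOC100645343 (putative fatty acyl-CoA reductase CG5065), LOC100643779 (fatty acyl-CoA reductase wat) and LOC100647369 (fatty acyl-CoA reductase wat, isoform X3). In *Drosophila melanogaster* the gene waterproof (wat) is needed for the filling of the tracheal tubes with air. A further 6 members stand also in the study's lists for the biosynthesis of unsaturated fatty acids and for beta-alanine metabolism (LOC100644825, LOC100648955, LOC100649153, LOC100649394, LOC100649275 and LOC100646491), and 5 of these lie on 1 chromosome. Another 3 are shared with other lists: LOC100651170 with the citrate cycle, carbon and glutathione metabolism, LOC100652174 with the degradation of branched-chain amino acids, and LOC100645396 with drug metabolism. The remaining 19 have no other list.

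Many members had counts that were not whole. The authors divided reads that align to several places or overlap several genes into fractions, so such a count holds at least 1 divided read, though it does not say how many. Of the members, 16 of 31 had such counts in over 95% of the bees, against 1.41% of all genes. Of the 19 members without a name or another list, 12 had fractional counts in at least 87.7% of the bees, and all 12 lie on unplaced contigs of the reference assembly. Within this shared-read group LOC100647052, LOC100647404, LOC100647284 and LOC100647527 lie within 87.1 kb of 1 contig, and LOC110120153 and LOC105666844 within 15.2 kb of another. In all, 14 members are on unplaced contigs, where 12.8% of all genes lie. Near-identical copies can exchange reads in such counting, so the separate levels of the 12 are uncertain. The 6 members of the unsaturated fatty acid lists had fractional counts in 98.8% to 100% of the bees, and their separate levels are uncertain as well. The other 7 members without a name, all on chromosomes, had such counts in 2.47% to 80.2% of the bees, and the 3 reductases in 18.5% to 60.5%.

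The levels of the members, compared as CPM per kilobase of exon, spanned from 0.282 to 364 in the median bee. LOC100651198, which carries no name, was the highest at 364 CPM per kb, and its CPM ran from 178 through a median of 946 to 2052. LOC100646060, also unnamed, followed at 214 CPM per kb, and LOC100651170 of the citrate cycle list came next at 132 CPM per kb. LOC100645396 of the drug metabolism list had the highest median CPM after LOC100651198 and LOC100646060, at 145 to 1067 CPM around 350 CPM. The 3 reductases lay at ranks 7, 8 and 13 of the 31 by CPM per kb, at 48.5 CPM per kb for LOC100647369, 42.2 for LOC100643779 and 21.6 for LOC100645343. At the low end stood LOC100645223 (0.282 CPM per kb), LOC100646729 (0.366), LOC100648303 (0.448), LOC110120153 (0.858) and LOC105666991 (0.879), each counted in every bee.

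The bees differed more in the members than in most genes. The standard deviation of log2 CPM over the 81 bees had a median of 0.78 among the members against 0.47 among the 9475 genes tested. A ranking by fold change in these bees can favour genes that vary much, so the larger spread may in part restate the choice. The reductase LOC100645343 varied most, with a standard deviation of 1.87 on the log2 scale and a range from 2.48 CPM to 282 CPM around a median of 54.8 CPM. LOC100643779 came second in spread and ran from 3.25 to 766 CPM around 81.4 CPM. The third reductase, LOC100647369, had a standard deviation of 0.76 around a median of 158 CPM. The largest share of a member's summed CPM in 1 bee was 7.62%, for LOC100647404 in bee 5 of site Wmb1. Next came 7.25% for LOC100643779 and 5.88% for LOC100645343, where an equal share would be 1.23%. The share of the top bee had a median of 3.54% among the members, against 2.56% among all tested genes.

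Between sites, the means of a member differed by a median of 3.24-fold from the lowest to the highest site, with 2.17-fold for LOC100652174 as the smallest and 8.32-fold for LOC100643779 as the largest span. A median of 18.5% of the variance of a member lay between sites, against 10.9% for all tested genes, while 11 of the 31 members and 20.9% of all genes had over 20% there. Grazing is a property of the site and chose the members, so a larger share than in all genes in part restates the choice. LOC100650366, unnamed, had the largest share at 29.9%. Its site means ran from 64.7 ± 37.9 CPM (SD, n = 5) at Wmb4 to 302 ± 37.4 CPM (SD, n = 5) at Wma6. Both lie in the highland belt, but Wmb4 was grazed and Wma6 was not, which is the contrast that chose the members. LOC100645396 followed at 27.3%, from 247 ± 83.4 CPM (SD, n = 5) at Wmb4 to 714 ± 292 CPM (SD, n = 5) at the lowland site T3. LOC100646060 had 26.9%, from 130 ± 95.6 CPM (SD, n = 5) at Wmb4 to 555 ± 140 CPM (SD, n = 5) at Wma6.

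The same sites recurred at both ends. The lowest mean was at Wmb4, the single grazed site of the highland belt at 1655 m, for 18 of the 31 members, and at H4 for 5. The highest mean was at T3 (ungrazed, 656 m) for 11 members and at Wma6 (ungrazed, 1930 m) for 10. T3 and Wma6 are ungrazed and Wmb4 and H4 are grazed, which is the direction that chose the members, so these counts are given as a description only. T3 had 4 of 5 bees over 1000 CPM of gut markers, Wma6 had 4 of 5, H4 had 3 of 5 and Wmb4 had 2 of 5. Wma2, where no member had its highest mean, had 5 of 5, and the part of gut markers in these ends was not tested. The map of site means shows the column of Wmb4 low for the members other than the reductases LOC100645343 and LOC100643779, apart from LOC100645223, which was high there. It shows most of the 12 shared-read members low at H4 and Wmb4 and high at T3 and Wma6.

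**Figure D1:**
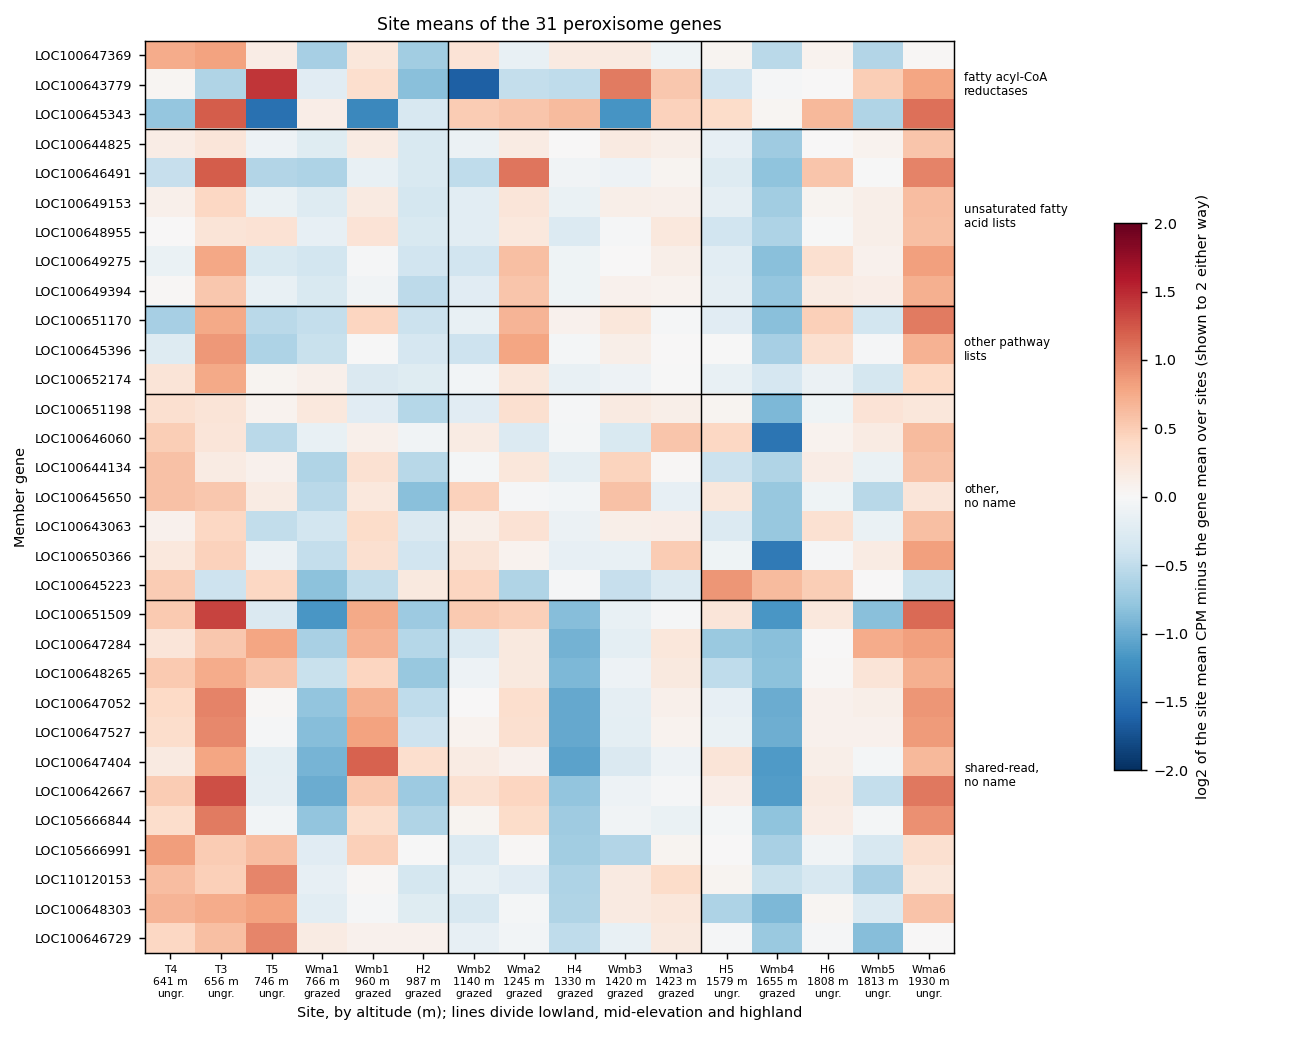
Site means of the 31 members over 16 sites ordered by altitude (x axis, in m, with grazing) and grouped by annotation (y axis); colour is the log2 of the site mean CPM minus the member's mean over sites. Wmb4 held the lowest mean of 18 members, T3 the highest of 11 and Wma6 the highest of 10.

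All 31 members had a lower fitted level in the 45 bees of grazed sites than in the 36 bees of ungrazed sites, which follows from the choice of the list. The log2 fold changes ran from -0.66 to -0.18 with a median of -0.37, where the median of all 9385 genes was 0.00. Of the members, 7 lay at or below -0.5, where 3.14% of all genes lie, and no inference is drawn from this count. The largest differences were all in the shared-read group. LOC100642667 had a log2 fold change of -0.66 ± 0.23 (SE), with 0.321 to 23.5 CPM around a median of 3.99 CPM in grazed bees and 1.32 to 24.6 CPM around 8.28 CPM in ungrazed bees. LOC100651509, the most abundant of that group, had a value of -0.63 ± 0.26 (SE), with 5.39 to 422 CPM around 64.0 CPM against 29.0 to 408 CPM around 139 CPM. In both genes the highest bees of the classes were alike, the lowest bee was a grazed one, and most bees lay where the classes overlap. LOC105666844 (log2 fold change -0.60), LOC100648303 (-0.55) and LOC100648265 (-0.54) came next. LOC100643063 (-0.18), LOC100644825 (-0.18) and LOC100651198 (-0.21) differed least.

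The median grazing difference of the members was -0.32 among the 44 bees over 1000 CPM of gut markers, -0.31 among the 37 bees under it, and -0.64 with belt as a covariate. These values draw on the same bees that chose the members, so their sign follows from the choice. The grazing classes are not balanced over belts, since every mid-elevation site was grazed and 1 highland site was.

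**Figure D2:**
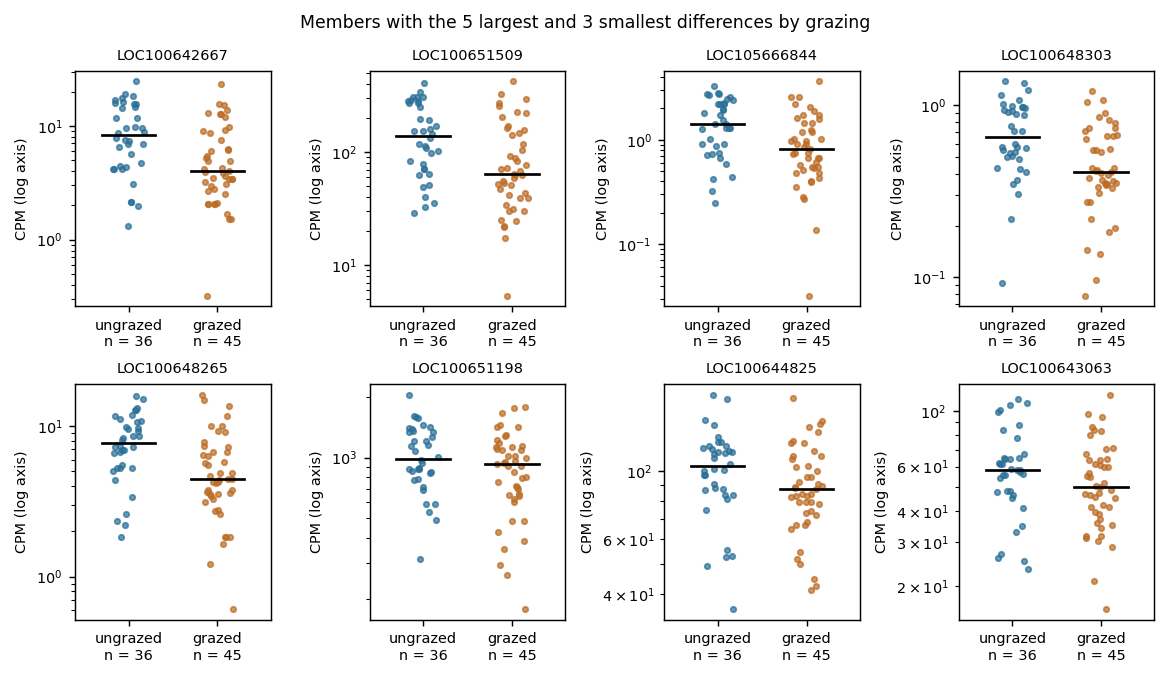
CPM on a log axis in each of the 36 ungrazed and 45 grazed bees for the 5 members with the largest and the 3 with the smallest difference by grazing; points are bees and bars are medians. Medians were lower in grazed bees for all 8 genes and the bees of both classes overlapped in all 8.

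Elevation was tested with edgeR's quasi-likelihood test over all 81 bees, in which a call needed an adjusted p below 0.05 together with a log2 difference of 0.5 or more in either direction. Bees over 1000 CPM of gut markers were 18 of 26 in the highland, 14 of 25 at mid-elevation and 12 of 30 in the lowland, and their part in these comparisons was not tested beyond the alternatives named. Limma with site as a random block called 0 of all genes in each of the 6 belt and temperature comparisons, so it does not set the members apart. Belt is a property of the site, and no call given here held in that fit. The edgeR calls count the bees of a site as independent. No member was called between highland and lowland (0 of 31, against 0.686% of all genes), and at an unadjusted p under 0.05 there were 4 members, against 17.4% of all genes. DESeq2 without a prior called 1 member among 132 of 9475 genes. The smallest p belonged to the low-abundance shared-read gene LOC100646729, with 0.203 to 2.33 CPM around a median of 0.81 CPM in the highland and 0.64 to 3.39 CPM around 1.29 CPM in lowland bees. The difference on the log2 scale was -0.61 ± 0.19 (SE; edgeR adjusted p = 0.076), and the belts overlapped over most of their range. LOC110120153 and LOC100648303, also of the shared-read group, followed with -0.50 ± 0.20 (edgeR adjusted p = 0.155) and -0.46 ± 0.21 (edgeR adjusted p = 0.242). In the upward direction the reductase LOC100645343 had the largest value, 0.65 ± 0.42 (SE; edgeR adjusted p = 0.437), with medians of 67.5 CPM in the highland and 14.5 CPM in the lowland. LOC100645223 (0.45 ± 0.25) and LOC100651170 (0.32 ± 0.23) also lay above 0 and did not pass the test.

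Between mid-elevation and lowland no member was called either (0 of 31, against 0.369% of all genes; 4 members at an unadjusted p under 0.05 against 15.9%), and DESeq2 called 0 members. LOC105666991 had a log2 fold change of -0.67 ± 0.24 (SE; edgeR adjusted p = 0.156) and a median of 0.737 CPM in mid-elevation bees against 1.25 CPM in lowland bees. LOC100646729 had -0.55 ± 0.19 and LOC100648303 -0.45 ± 0.21, and LOC100645343 (0.43), LOC100651170 (0.24) and LOC100645396 (0.19) were the members above 0 with the smallest p. All 12 shared-read members were below 0 in both comparisons with the lowland, which share the lowland bees. The same was true of 1 of the 6 members of the unsaturated fatty acid lists in each.

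Between highland and mid-elevation, too, no member was called (0 of 31, against 0.211% of all genes; 1 member at an unadjusted p under 0.05 against 15.1%), and DESeq2 called 0 members. The member with an unadjusted p under 0.05 was LOC100645223, the least abundant, at 0.56 ± 0.26 (SE; edgeR adjusted p = 0.288) and a median of 0.519 CPM in highland bees against 0.263 CPM in mid-elevation bees. LOC100647404 (0.28) and LOC105666844 (0.22) were next above 0, and LOC100645650 (-0.28), LOC100651198 (-0.17) and LOC100647369 (-0.18) below it.

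These belt comparisons mix elevation with grazing, which is the contrast that chose the members. A fit with grazing as a covariate subtracts the fitted grazing difference, which the rule made negative for every member. The members' median log2 fold change in that fit was -0.52 between highland and mid-elevation and 0.29 between mid-elevation and lowland, and these shifts are not independent of the choice. Elevation was therefore also tested within 1 grazing class at a time.

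Among ungrazed sites, highland bees (n = 21) against lowland bees (n = 15), 1 of 31 members was called, against 0.728% of all genes, or 0.525% in the lower direction, and 7 had an unadjusted p under 0.05, against 19.6%. The called member was LOC110120153, an unnamed gene of the shared-read group that was lower in the highland. Its CPM ran from 0.613 through a median of 1.38 to 3.39 in the highland and from 0.939 through 2.36 to 5.01 in the lowland, so the groups overlapped, while 20 of 21 highland bees lay below the lowland median. The log2 fold change was -0.81 ± 0.20 (SE; edgeR adjusted p = 0.040). Its neighbour on the contig, LOC105666844, had -0.19 ± 0.29. The next members by p were LOC100646729 (-0.76 ± 0.22, edgeR adjusted p = 0.062), the reductase LOC100647369 (-0.59 ± 0.18, edgeR adjusted p = 0.074) and LOC100648303 (-0.69 ± 0.21, edgeR adjusted p = 0.078). LOC100647369 ran from 73.0 through 160 to 240 CPM in the highland and from 97.3 through 234 to 500 CPM in the lowland.

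The call of LOC110120153 rested on few sites. Its site means were 3.06 ± 1.22 CPM (SD, n = 5) at T5, 2.38 ± 1.02 at T4 and 2.15 ± 0.76 at T3, the ungrazed lowland sites, and from 0.975 CPM at Wmb5 to 1.81 CPM at Wma6 in the highland. Without H6, T4, T5 or Wma6 no member was called, with edgeR adjusted p of LOC110120153 between 0.051 and 0.289, and of all genes 0 to 8 were called there. Without T3, 4 members were called, LOC110120153 among them, in a fit that called 914 of 9400 genes (9.72%). With site as a random block in limma the adjusted p of LOC110120153 was 0.408 and with counts summed per site it was 0.723, and both fits called 0 of all genes. Library measures taken from the counts also differed in their medians between these groups, with ranges that overlapped. No measured RNA quality entered the fits, although the study reports RNA integrity values that ranged widely between samples. The length slope, the change of log2 CPM with log2 exon length in a bee, ran from -0.33 to 0.18 around -0.01 in the highland and from -0.10 to 0.20 around 0.08 in the lowland, and as a covariate it left LOC110120153 at -0.77 (edgeR adjusted p = 0.087). Gut markers lay at 14.9 to 71402 CPM around 31529 CPM in the highland and 7.37 to 45346 CPM around 13.9 CPM in the lowland. With the gut-marker set as covariate, LOC110120153 stood at -0.58 (edgeR adjusted p = 0.164).

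Of the other lists in this comparison, 1 of 9 oenocyte and cuticular lipid genes was called higher and 1 of 9 testis genes lower, and none of 3 fat body, 10 flight muscle or 1 ovary genes. The summed oenocyte list ran from 1535 to 13950.5 CPM around 4569 CPM in the highland and from 3213 to 18505 CPM around 5244 CPM in the lowland. The fat body list ran from 8.37 to 3905 CPM around 21.99 CPM against 12.5 to 601 CPM around 20.9 CPM, with a median log2 fold change of 1.26 over its genes. The flight muscle list, at 0.94 in that median, ran from 2390.4 to 10184 CPM around 4523 CPM against 2313 to 6206.5 CPM around 3369.9 CPM. No gene of these lists was at 0 in every bee, and their part in the differences of the members was not tested.

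Among grazed sites, mid-elevation bees (n = 25) against lowland bees (n = 15), no member was called (0 of 31, against 0.138% of all genes; 2 members at an unadjusted p under 0.05 against 16.0%), and DESeq2 called 0 members. Of the members 25 lay above 0, with a median log2 fold change of 0.19 against 0.01 for all genes. Without the lowland site Wmb1 that median was 0.47. The 19 members outside the shared-read group were all above 0, while the shared-read group was divided at 6 above and 6 below. LOC100646491 had 0.54 ± 0.26 (SE; edgeR adjusted p = 0.294) and LOC100649394 0.39 ± 0.17 (SE; edgeR adjusted p = 0.253), both from the unsaturated fatty acid lists, and LOC100645650 had 0.52 ± 0.27. The lowest values belonged to LOC100647404 (-0.60 ± 0.41), LOC105666991 (-0.36 ± 0.29) and LOC100646729 (-0.24 ± 0.23). The medians of LOC100647404 went the other way, at 8.33 CPM in mid-elevation and 7.33 CPM in lowland bees of these sites. Its lowland bees reached 81.2 CPM, with a mean of 16.2 CPM, so a few high bees carried its value.

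Whether the difference between highland and lowland changed with grazing was fitted as an interaction. It is built from the grazed-minus-ungrazed differences that chose the members, and its grazed highland is the single site Wmb4, so its values for the members are a description. No member was called (0 of 31, against 0.0103% of all genes), and 5 had an unadjusted p under 0.05, against 971 of 9700 genes. The interaction was fitted with edgeR only. No inference is drawn from these counts or from the 26 members below 0. The medians of LOC100646060, the member with the largest interaction value, were 151 CPM in grazed and 412 CPM in ungrazed highland bees, and 341 and 405 CPM in grazed and ungrazed lowland bees.

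**Figure D3:**
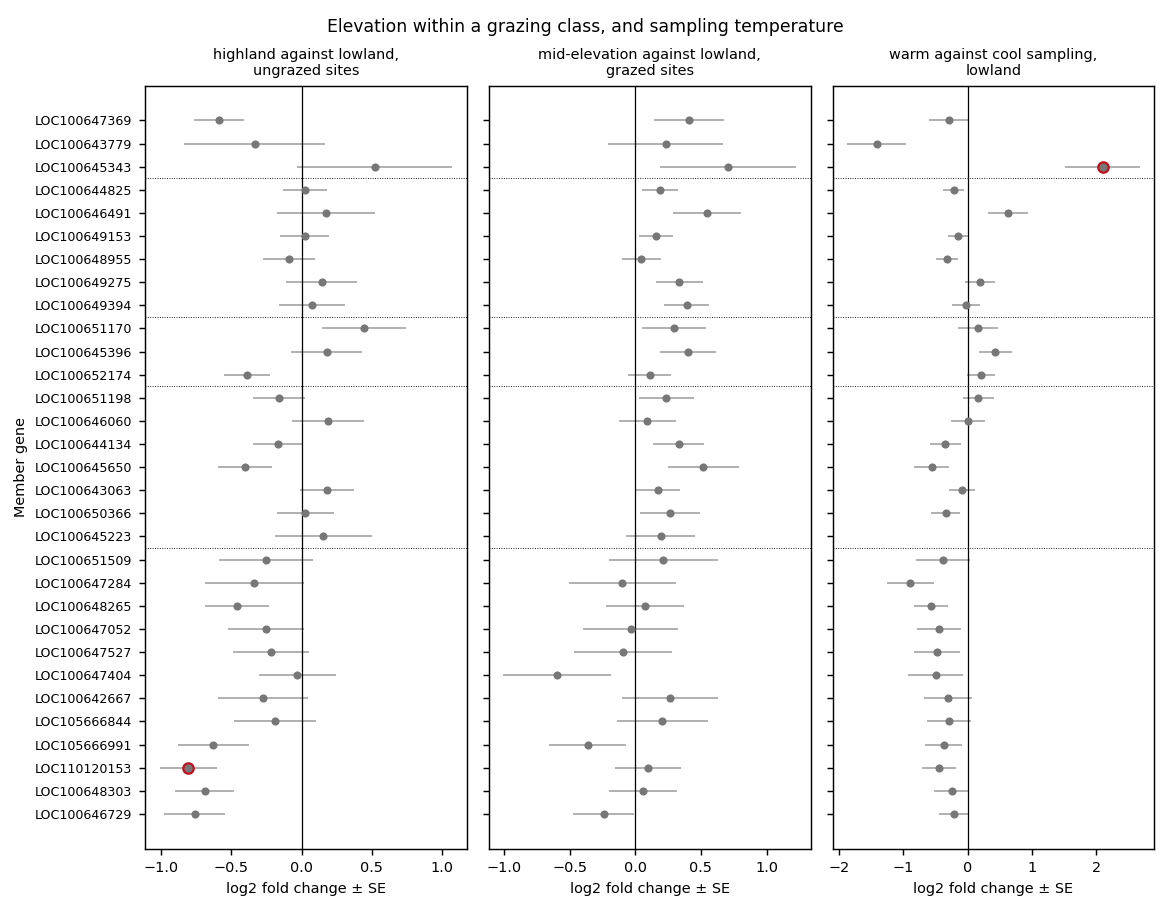
Log2 fold change (x axis, bars are SE) of each member (y axis, grouped by annotation) for highland against lowland among ungrazed sites, mid-elevation against lowland among grazed sites, and warm against cool sampling in the lowland; red marks a call. LOC110120153 at -0.81 and LOC100645343 at 2.10 were the 2 calls, and LOC100645223 was not tested by temperature.

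Of the comparisons tested, sampling temperature gave the largest fitted difference of a member, in a reductase. Warm bees (n = 17) were compared with cool bees (n = 13) within the lowland; site T4 gave bees to both classes, and 10 of the warm and 5 of the cool bees came from grazed sites. Of 30 members tested 1 was called, against 4.06% of all genes, or 3.1% in the higher direction, and 5 had an unadjusted p under 0.05, against 25.0%. LOC100645343, the reductase CG5065, was higher in warm bees, at 3.84 to 221 CPM around a median of 71.7 CPM against 4.80 to 56.3 CPM around 6.91 CPM in cool bees. The classes overlapped, since 7 of 17 warm bees did not exceed the highest cool bee, while the other 10 stood above every cool bee. The log2 fold change was 2.10 ± 0.58 (SE; edgeR adjusted p = 0.032).

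LOC100643779, the reductase wat, lay in the opposite direction, at 3.25 to 236 CPM around 81.4 CPM in warm bees and 9.64 to 548 CPM around 144 CPM in cool bees. Its log2 fold change of -1.41 ± 0.46 did not pass the test (edgeR adjusted p = 0.060), whereas DESeq2 without a prior gave an adjusted p of 0.018. Without Wmb1, the only grazed cool site, it passed in edgeR at -1.65 (edgeR adjusted p = 0.027). All cool bees were then ungrazed, so that value of LOC100643779 draws on the grazing difference that chose the members. By gut markers its direction was not the same: under 1000 CPM the medians were 120 CPM in warm and 163 CPM in cool bees (log2 fold change -1.12, edgeR adjusted p = 0.290), and over it 53.6 CPM in 10 warm bees and 9.64 and 54.3 CPM in 2 cool bees (0.85, edgeR adjusted p = 0.682). With the gut-marker set as covariate the value was -0.70 (edgeR adjusted p = 0.447). LOC100647369, the other wat, had -0.30 ± 0.31 (edgeR adjusted p = 0.574). The 12 shared-read members were all below 0, from -0.89 to -0.21, and none of them passed. A larger share of the warm than of the cool bees came from grazed sites. This common direction is therefore not independent of the choice of the members, and no inference is drawn from it. Without T3, the site with the highest mean of 11 members, 4 members were called, all lower in warm bees (LOC100645650, LOC100642667, LOC100648265 and LOC100651509). That fit called 311 of 9247 genes (3.36%), and LOC100645343 was at 1.68 (edgeR adjusted p = 0.081). Its only ungrazed warm bees were the 2 of T4, so it draws on the grazing difference that chose the members. No inference is drawn from these 4 calls.

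LOC100645343 followed the gut markers as well as the temperature class. Over all 81 bees its median was 70.5 CPM in the 44 bees over 1000 CPM of gut markers, where no bee was under 17.2 CPM, and 6.91 CPM in the 37 bees under it, where the highest bee reached 282 CPM. Of the warm bees, the 10 over 1000 CPM of gut markers had 17.2 to 221 CPM around 79.6 CPM and the 7 under it 3.84 to 107 CPM around 8.50 CPM. The cool bees split the same way, with 30.8 and 54.4 CPM in the 2 bees over 1000 CPM and 4.80 to 56.3 CPM around 5.93 CPM in the 11 under it. With the gut-marker set as covariate the temperature difference was 1.36 (edgeR adjusted p = 0.138), and within the bees under 1000 CPM it was 1.46 (edgeR adjusted p = 0.301). At T4, which was sampled in both classes, the 3 cool bees had 5.47, 5.93 and 6.91 CPM and no bee over 1000 CPM of gut markers; of the 2 warm bees the one at 8.50 CPM was under that limit and the one at 118 CPM over it. Leaving out T3, T4 or T5 also ended the call of LOC100645343, with edgeR adjusted p between 0.081 and 0.111, and with site as a random block in limma, which called 0 of all genes, the adjusted p was 0.267. Of the other lists, 1 of 9 oenocyte genes and 2 of 9 testis genes were called higher in warm bees and none of 3 fat body, 10 flight muscle or 1 ovary genes was called. The summed oenocyte list had medians of 7541.5 CPM in warm and 5919 CPM in cool bees and the flight muscle list 2740.45 and 4295 CPM, with ranges that overlapped in both, and their part was not tested.

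**Figure D4:**
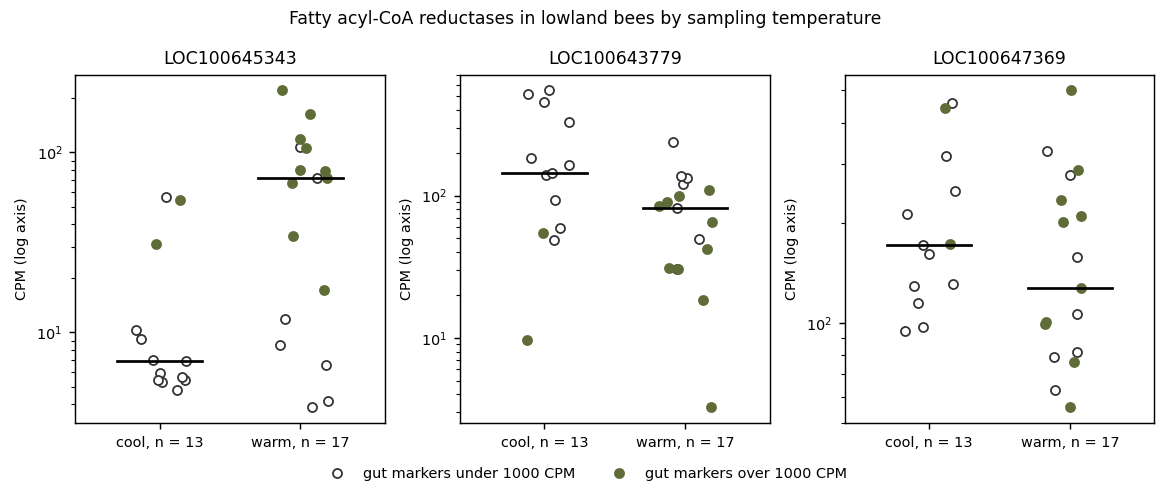
CPM on a log axis of the 3 fatty acyl-CoA reductases in the 13 cool and 17 warm lowland bees; points are bees, filled where the summed gut markers exceeded 1000 CPM, and bars are medians. For LOC100645343 the filled points lie between 17.2 and 221 CPM in the warm class and at 30.8 and 54.4 CPM in the cool class.

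Other members also differed between the bees over and under 1000 CPM of gut markers. As a description, the mean log2 CPM was higher in the bees over that limit by 1.15 for LOC100646491, 0.93 for LOC100645396, 0.65 for LOC100651170 and 0.59 for LOC100649275, and lower by at least 0.5 for LOC100643779 and LOC110120153, with differences of -1.30 and -0.52. With LOC100645343 these are 7 of 31 members at 0.5 or more, where 14.2% of all genes lie. LOC100645396 had medians of 553 CPM over and 256 CPM under the limit, and LOC100646491 had 15.3 and 6.35 CPM. The rest of the module differed by less than 0.5, and the third reductase, LOC100647369, had medians of 158 CPM in both sets. What part the gut transcripts had in these differences was not tested.

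Across bees the members rose and fell together, though in blocks. Pearson's r of log2 CPM between members had a median of 0.42 over 465 pairs, against -0.01 over all pairs of tested genes, and a median of 0.31 when only deviations from site means were used. A shared direction under grazing was what chose the members, and shared reads make copies correlate by construction, so the values describe these libraries. Within the 12 shared-read members r ran from 0.35 to 0.997 with a median of 0.69. The pair LOC100647052 and LOC100647527, on the same contig, had r = 0.997 and Spearman's rho = 0.997, and r = 0.996 without the 2 bees farthest from the median. No p is given for pairs that may share reads.

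The 6 members of the unsaturated fatty acid lists formed a second block, with r from 0.60 to 0.95 and a median of 0.85, and its members also had fractional counts in nearly every bee. Between that block and the shared-read group the median r was 0.43, and it was 0.27 on deviations from site means. Of the reductases, LOC100647369 had its largest r with LOC100645650 (0.69) and with LOC100651509 of the shared-read group (0.64), and its r with the other reductases was 0.04 and 0.06. LOC100645343 had a median r of 0.05 with the other members, and its 2 largest values were 0.48 with LOC100646491 (rho = 0.47) and 0.45 with LOC100645396 (rho = 0.45), the 2 unplaced-contig members that were also higher in bees with gut markers. Its r with LOC100643779, which lies on the same chromosome, was -0.19 (rho = -0.18; permutation p = 0.092 and 0.112, or 0.110 and 0.131 after adjustment over the 465 pairs), and -0.25 without the 2 farthest bees. LOC100645223, the least abundant member with a median count of 9, had r below 0 with each of the other members, with a median of -0.27. Its lowest value was -0.39 with LOC100650366 (rho = -0.39), and r was -0.37 without the 2 farthest bees. The permutation p were 3e-04 and 3.9e-04, or 5.6e-04 and 6.9e-04 after adjustment over the 465 pairs. These p treat bees as independent, although 29.9% of the variance of LOC100650366 lay between sites. The 465 pairs also include those that may share reads, whose small p make the adjustment lenient. The pair was named because its r was the lowest.

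**Figure D5:**
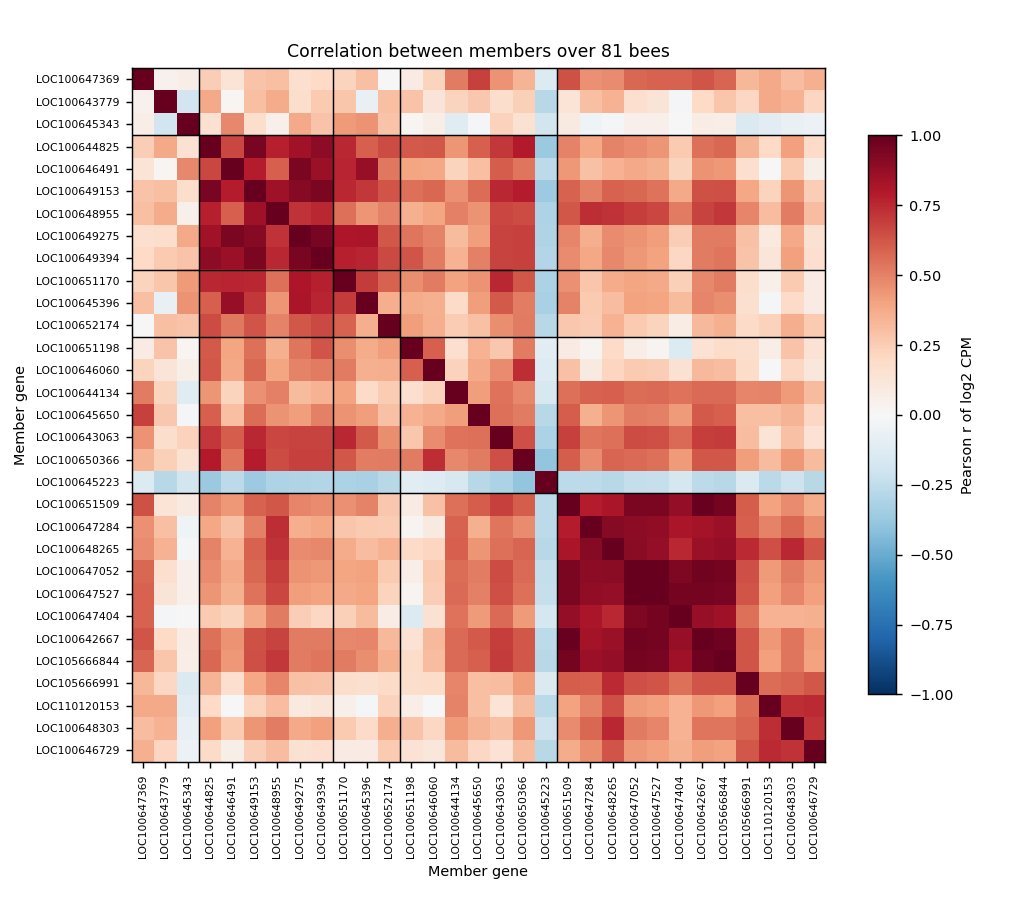
Pearson's r of log2 CPM between each pair of the 31 members over 81 bees, with members on both axes in the order of their annotation groups and lines between groups. The shared-read group (median r of 0.69) and the unsaturated fatty acid group (median r of 0.85) stand out as blocks, the row of LOC100645343 has a median of 0.05, and that of LOC100645223 is below 0.

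Beyond the list, 9 genes carry a name of the same pathway: 3 further fatty acyl-CoA reductases, 1 peroxisome assembly factor, 3 genes of acyl-CoA activation and oxidation, mevalonate kinase and phosphomevalonate kinase. Only LOC100648001, fatty acyl-CoA reductase 1, was called in any of the 6 comparisons tested by belt, grazing class or temperature. It was lower in the highland than in the lowland, with a median of 2.59 CPM and a highest bee at 8.75 CPM against 2.38 to 35.9 CPM around 5.13 CPM, a log2 fold change of -1.20 ± 0.29 (SE; edgeR adjusted p = 0.031). Among ungrazed sites the value was -1.65 ± 0.32 (edgeR adjusted p = 0.021). With site as a random block in limma its adjusted p was 0.499 and 0.332, with counts summed per site 0.782 and 0.723, and with the gut-marker set as covariate in edgeR 0.111 and 0.121, in the same order. Both calls also ended without H6, T4 or T5, and the first without Wma1. The other 8 did not pass the test in these comparisons.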

How the data were processed

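Poly-A RNA of 81 bees was sequenced by the authors with stranded libraries. Per the labels and the study's methods, reads were demultiplexed with bcl2fastq 2.20.0.422, trimmed with Cutadapt 2.5, aligned with STAR 2.7.2b to the genome of the related *B. terrestris* and counted per gene with featureCounts 1.6.4. The deposited values are estimated counts, since the authors divided reads that align to several places or overlap several genes into fractions; copies of a gene therefore share reads. Here the counts were rounded to whole numbers for the tests.

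Genes were filtered with filterByExpr and scaled by TMM, and the comparisons were fitted with edgeR 4.0.16 (quasi-likelihood test, Benjamini-Hochberg adjustment over all tested genes; R 4.3.3). The standard error is the absolute log2 fold change divided by the root of F. Log2 CPM used a prior count of 2. Belts follow from the altitudes in the labels and the altitude ranges of the series description. The site at 1423 m, just past the mid-elevation bound given there, was placed as in the study. Grazing and temperature class come from the study's sample tables. DESeq2 1.42.0, limma 3.58.1 and sums per site were alternatives. The code was tested on simulated data. The members, lists and named-gene rule were chosen with earlier results of these data known. Named are called members, otherwise the 3 smallest p each way in a comparison, and the extremes of grazing difference, level, site share and single-bee share; others were chosen after their values were seen. The division at 1000 CPM of gut markers was added after seeing the data. The study's own fold changes and p-values were not used. The spread between bees sets the precision.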

Additional observations from a re-analysis of the deposited data

How the results depend on the processing

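The number of called members was 0 or 1 in each of the 6 tested comparisons, so single genes decide every change, and many alternatives moved the calls of all genes as much. Between highland and lowland 0 members and 65 of all genes were called. It was 1 member with DESeq2 without a prior (132 genes), 1 with grazing as a covariate (50), and 0 to 1 when each site was left out in turn (2 to 248). Between highland and mid-elevation it was 0 (20 genes), and 1 with grazing as a covariate (1.08% of all genes), a fit that draws on the grazing difference that chose the members. Among ungrazed sites it was 1 (68 genes), 4 with DESeq2 with the fold-change prior (244) and without (255), 2 with bee number as a replicate block (188), 0 with the gut-type score (26), the gut-marker set (9) or the length slope (3) as covariate or in the bees under 1000 CPM of gut markers (1), and 0 to 4 when each site was left out (0 to 914). It was 0 with counts summed per site, with limma and in the bees over 1000 CPM, where 0 of all genes were called, so these do not set the members apart. By temperature it was 1 (378 genes), 2 with DESeq2 with the prior (717) and without (768), 0 with the gut-type score (33) or the gut-marker set (5) as covariate, with counts summed per site, temperature in degrees C or the bees under 1000 CPM (1 each), and 0 to 4 when each site was left out (51 to 684). It was 0 with limma and in the bees over 1000 CPM, with 0 of all genes called. Leaving out T3 or Wmb1 changes the grazing balance of the temperature classes, so those counts draw on the choice of the members. The other 2 comparisons stayed at 0 in every alternative run. Bee numbers do not pair bees across sites: same-numbered bees of different sites had a median r of 0.02 in their deviations over genes against -0.05 for others, and the replicate block moved the temperature value of LOC100645343 from 2.10 to 1.98. LOC110120153, LOC100645343 and LOC100648001 kept their sign in every alternative. Leaving out each site gave -0.93 to -0.65 for LOC110120153 and 1.68 to 2.38 for LOC100645343. The temperature value of LOC100643779 turned from -1.41 to 0.85 in the bees over 1000 CPM, which hold 2 cool bees. Members near 1 CPM have few reads.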
